A study of Mus musculus with 12 samples.

Results

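The genes described here are those that encode the subunits of the proteasome, its activators, its inhibitor and its assembly factors. They were chosen by name: every measured probe whose RefSeq accession belongs to a mouse gene called Psma, Psmb, Psmc, Psmd, Psme, Psmf or Psmg plus a number was taken, which gave 46 genes on 64 probes. The array held 16535 named genes on 23374 of its 41174 probes. The other 17800 probes mapped to no gene name. Each of these was treated as a unit of its own, so counts, shares and medians given for all genes tested include them. Of the 46 genes, 31 had 1 probe and 15 had several, in which case the brightest probe stands for the gene. The levels of 45 of them were well above the local background on all 12 arrays, so the filter on dim probes removed none, and Psmb11 was well above it on 10. Another 2 genes with names of that form, Psma8 and Psmg4, had no matched probe.

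The proteasome is the protease that breaks down proteins tagged with ubiquitin. Its 20S core is a stack of rings of alpha and beta subunits, with the proteolytic sites on the beta subunits encoded by Psmb5, Psmb6 and Psmb7, and the 19S regulator, built from Psmc ATPases and Psmd subunits, recognises tagged proteins, unfolds them and feeds them into the core. Interferon-gamma induces Psmb8, Psmb9 and Psmb10, whose products take the place of the 3 constitutive proteolytic subunits in the immunoproteasome, together with Psme1 and Psme2, the subunits of the PA28 alpha-beta activator, and these enzymes make peptides for display on MHC class I. Psme3 encodes PA28 gamma, a nuclear activator of the same family that opens the core to substrates without ubiquitin tags.

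Liver and esophagus RNA of 6 male mice of a mixed 129Sv/C57BL6 background was hybridised to 12 one-colour arrays, 1 array per organ and mouse. The 3 TG mice (Col1a1tetO-Nanog/+;Rosa26rtTA/+) carried a Nanog transgene that doxycycline switches on through the rtTA activator expressed from Rosa26, and the 3 CTR mice (Col1a1+/+;Rosa26rtTA/+) carried the activator without the transgene. All 6 mice, at about 8 months of age, drank doxycycline at 0.2 mg/ml in a 7.5% sucrose solution for 48 h, so the drug and the activator are common to every group and no group without them was measured. Nanog encodes a regulator that keeps embryonic stem cells pluripotent, and the comparison asks how its induction acts on adult organs. On 0 of the 12 arrays did the single Nanog probe stand well above background, so these values give no check of the genotype labels, and whether that probe lies in the transgene's transcript is not known here. In control mice all 9 hepatocyte markers tested were lower in esophagus than in liver, and all 11 markers of stratified epithelium and all 10 of skeletal muscle were higher, as the organ labels say. Across genes, the correlation was 0.966 to 0.991 between arrays within a group and 0.695 to 0.722 between liver and esophagus arrays.

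Levels are given as log2 of the background-subtracted signal relative to that array's 75th percentile, so that a value of 0 equals that percentile and a difference of 1 is a factor of 2. Levels of different genes cannot be ranked against each other on this scale, because probes differ in how brightly they hybridise. Organ differences carry the 75th percentile scaling unless said otherwise, and most are followed by the value after quantile normalization, since the choice of scaling moved the whole family. With the 75th percentile the median over all genes tested lay at -0.20 for CTR esophagus minus CTR liver and at -0.41 for the same difference in TG, against -0.04 and -0.08 after quantile normalization. Esophagus and liver RNA were also extracted with different kits, and the effects of organ and of kit cannot be told apart. In such bulk RNA, fewer cells of a type and less RNA per cell cannot be told apart either.

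Promoter sequences of 5 members are shown here because their genes carry the organ differences described below: Psmb8 and Psmb9 for the immune subunits, Psme1 and Psme3 for activators that differed in opposite directions, and Psma3 for the alpha ring. Each is the stretch of 250 bases before the gene's start in the RefSeq table of GRCm38.p6, read 5′ to 3′ on the gene's strand. Capitals mark matches, on either strand, to the CCAAT box, to the core TGACNNNGC of the antioxidant response element, to the interferon-stimulated response element (GAAA, any 2 bases, GAAA) and to the STAT-binding GAS element TTCNNNGAA. None of the capitals overlap another motif.
Psmb8, chr17:34197945-34198194, plus strand: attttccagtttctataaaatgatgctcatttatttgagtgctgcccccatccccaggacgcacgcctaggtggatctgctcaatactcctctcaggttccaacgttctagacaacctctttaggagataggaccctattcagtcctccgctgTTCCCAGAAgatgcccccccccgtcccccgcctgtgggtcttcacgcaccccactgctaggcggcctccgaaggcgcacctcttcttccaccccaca
Psmb9, chr17:34187331-34187580, minus strand: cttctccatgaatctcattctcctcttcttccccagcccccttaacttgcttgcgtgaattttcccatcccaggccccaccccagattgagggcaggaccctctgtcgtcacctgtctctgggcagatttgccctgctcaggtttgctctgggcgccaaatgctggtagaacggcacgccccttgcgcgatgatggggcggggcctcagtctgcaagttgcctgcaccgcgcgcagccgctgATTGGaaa
Psme1, chr14:55578244-55578493, plus strand: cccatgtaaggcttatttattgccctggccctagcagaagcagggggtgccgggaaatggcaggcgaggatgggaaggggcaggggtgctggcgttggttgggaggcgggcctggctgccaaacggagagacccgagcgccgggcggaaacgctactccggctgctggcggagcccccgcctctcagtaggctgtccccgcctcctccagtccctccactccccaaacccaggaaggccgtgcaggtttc
Psme3, chr11:101315963-101316212, plus strand: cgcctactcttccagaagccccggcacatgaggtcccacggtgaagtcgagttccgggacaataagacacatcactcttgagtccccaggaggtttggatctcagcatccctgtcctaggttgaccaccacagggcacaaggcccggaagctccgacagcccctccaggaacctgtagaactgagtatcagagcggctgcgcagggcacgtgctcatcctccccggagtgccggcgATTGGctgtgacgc
Psma3, chr12:70974373-70974622, plus strand: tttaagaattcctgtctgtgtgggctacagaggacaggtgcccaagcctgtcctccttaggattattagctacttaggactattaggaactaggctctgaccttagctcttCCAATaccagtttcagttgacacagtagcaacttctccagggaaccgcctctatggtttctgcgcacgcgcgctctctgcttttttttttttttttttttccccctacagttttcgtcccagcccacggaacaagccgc
In these stretches Psmb8 has 1 match to the GAS element, Psmb9, Psme3 and Psma3 have 1 CCAAT match each, on the opposite strand in Psmb9 and Psme3, and Psme1 has none of the 4 motifs. Of the 46 members, 39 had a promoter in the table. CCAAT was found in 14 of these 39 (35.9%), against 37.5% of the 27025 genes of the table, and within the alpha ring in 5 of 7 (71.4%), those of Psma1, Psma2, Psma3, Psma6 and Psma7. In the other role groups, of 4 to 9 promoters each, the share ran from 20% to 50%. The alpha ring was picked as the highest of these small groups, with no test. The antioxidant core was found in 5 of 39 (12.8%), those of Psmb5, Psmb6, Psmc6, Psmd12 and Psmd9, against 11.5% of all genes. The interferon-stimulated element was found in 3 of 39 (7.69%), those of Psmb3, Psmd4 and Psmd9, against 3.46%. It was in 0 of the 5 promoters of Psmb8, Psmb9, Psmb10, Psme1 and Psme2. The GAS element was found in 2 of 39 (5.13%), Psmb8 and Psmg1, against 8.13%. A match is a description of these letters only, and its absence says nothing about binding elsewhere.

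The family differed between organs, and the largest difference of the 46 ran against most of its members: Psme3 was 12.2-fold higher in CTR esophagus than in CTR liver. The immune subunits Psmb8, Psmb9 and Psmb10 and their activator subunit Psme1 were lower in esophagus, by 2.69-fold for Psme1 to 3.95-fold for Psmb9. The 20S core was lower in esophagus relative to the 19S regulator in every mouse. How many members were lower in absolute terms depended on the scaling. With the 75th percentile 34 of the 46 members passed the test as lower in CTR esophagus and 2 as higher (limma, Benjamini-Hochberg adjusted p under 0.05), where 36.1% of the 23356 genes and unnamed probes tested were called lower and 26.6% higher. This background, like the others below, was not limited to named genes and was not matched to the members in brightness. After quantile normalization 15 members were called lower and 8 higher, against a background of 32.1% and 31.1%. In TG mice 29 were called lower and 2 higher, with 40.3% and 23.4% of 23902 genes, and after quantile normalization 13 and 8, with 32.2% and 30.2%. The median difference of the 46 members was -0.75 in CTR and -0.88 in TG, that is -0.56 and -0.47 relative to the median of all genes, and after quantile normalization -0.18 in both, or -0.13 and -0.10 relative to all genes.

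The direction of most members was stable from mouse to mouse with the 75th percentile, the only scaling for which members were counted per mouse. With the 75th percentile, 34 members were lower and 2 higher in the esophagus than in the liver of the same animal in 6 of 6 mice, and a single mouse had between 38 and 41 members lower. Arrays were spread over slides, and on the slides that held both organs of one genotype 41 and 38 of the 46 members were lower in CTR esophagus (medians -0.97 and -0.88) and 39 and 41 in TG esophagus (medians -0.79 and -0.89), each from 1 array per organ. The share of all genes lower per mouse or per slide was not counted. With this scaling the median over all genes was itself -0.20 in CTR and -0.41 in TG, so these counts are descriptions only.

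A smaller set did not depend on scaling. Under 4 scalings (75th percentile, quantile, normexp background correction and the authors' deposited table) and in both genotypes, 11 members were called lower in esophagus: Psma4, Psmb2, Psmb8, Psmb9, Psmb10, Psmd9, Psmd10, Psme1, Psmf1, Psmg1 and Psmg3. The 2 members called higher under all of them were Psmd7 and Psme3. By the same rule 26% of 22829 genes were lower and 18.5% higher, so 11 of 46 is near the background and 2 of 46 below it. The 11 lower members were 3 immune subunits, 4 assembly factors, 2 constitutive core subunits, the activator subunit Psme1 and the inhibitor Psmf1, and no ATPase. With counts near or below the background, this make-up only lists the genes and is no result about their roles.

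**Figure D1:**
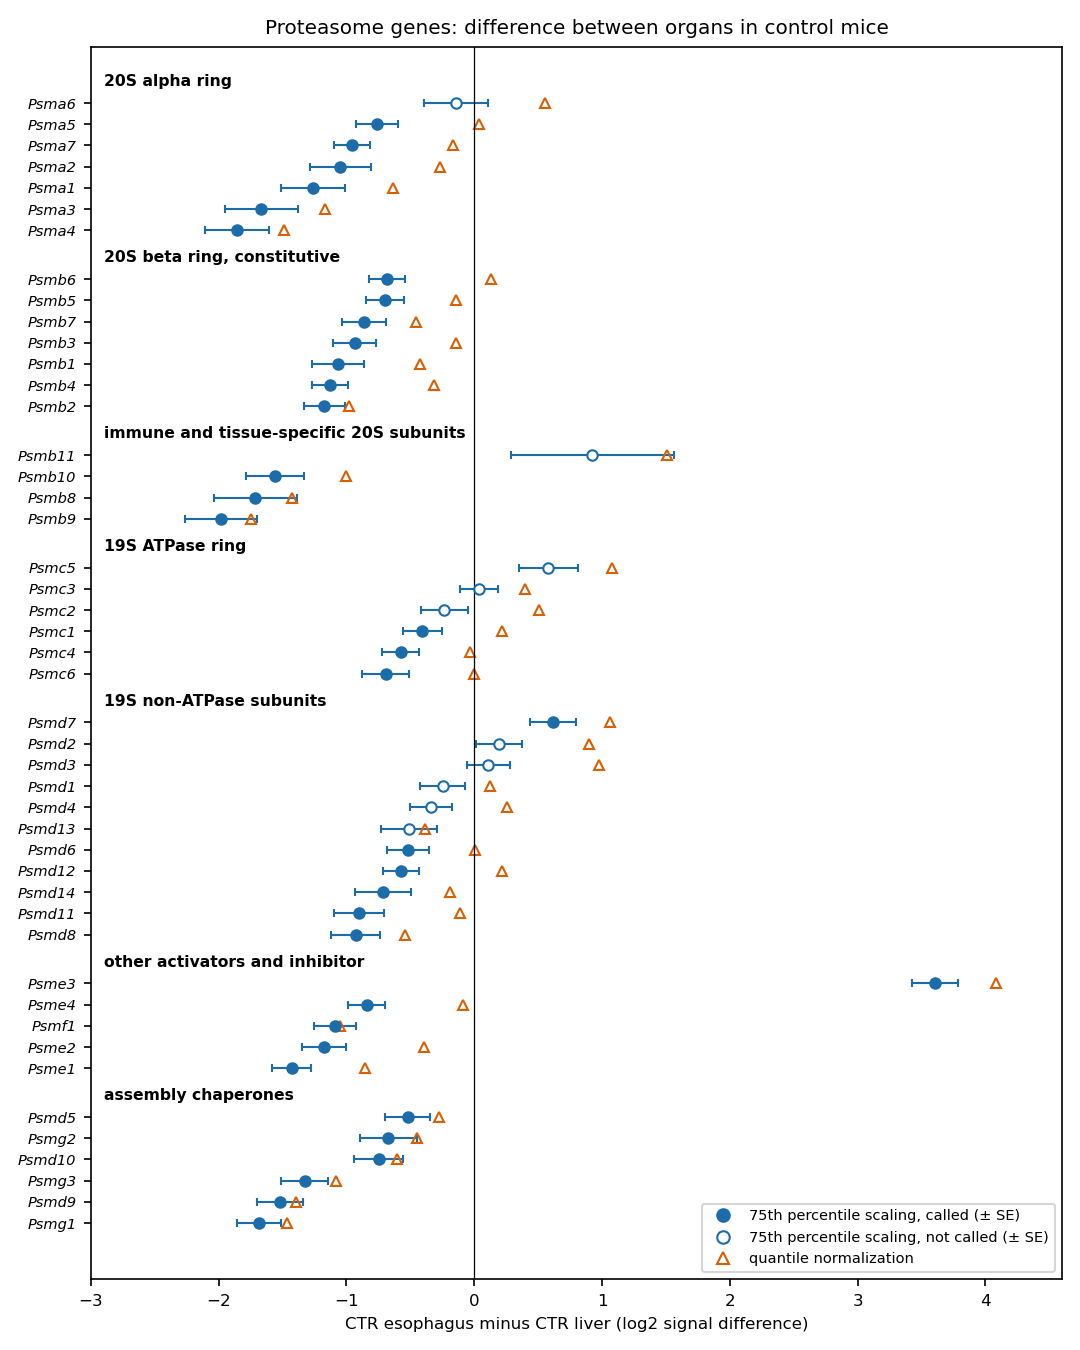
Difference between CTR esophagus and CTR liver for the 46 genes, by role, as log2 signal difference (horizontal axis). Circles with SE bars are values with 75th percentile scaling, filled where called, and open triangles are values after quantile normalization: the triangles lie to the right of most circles, past 0 for most 19S genes, while Psme3 lies at 3.61 and 4.09 and Psmb9 at -1.98 and -1.74.

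Among the activators, Psme3 had levels of 0.75, 0.88 and 0.88 in the livers of CTR mice 1, 2 and 3, and of 0.73, 0.75 and 0.54 in those of TG mice. In the esophagus it had 4.06, 4.52 and 4.76 in CTR and 4.46, 4.46 and 4.49 in TG. Every esophagus was thus far above every liver, with no overlap. The difference was 3.61 ± 0.18 (SE, adjusted p = 4.63e-08, limma) in CTR, and 3.80 ± 0.18 (adjusted p = 3.43e-08), a 13.9-fold difference, in TG. After quantile normalization it was 4.09 and 4.22. The gene was measured by a single probe.

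Psme1, which encodes PA28 alpha, showed the opposite order. Its levels were 4.76, 4.54 and 4.91 in CTR liver and 3.42, 3.24 and 3.28 in CTR esophagus, and 4.97, 4.67 and 4.88 in TG liver and 3.20, 3.06 and 3.17 in TG esophagus. No esophagus reached the lowest liver. The difference was -1.43 ± 0.15 (SE, adjusted p = 1.59e-05, limma) in CTR and -1.70 ± 0.16 in TG, and -0.86 and -1.10 after quantile normalization. Psme2, which encodes PA28 beta, differed by -1.18 ± 0.17 (adjusted p = 0.000149) in CTR and -1.12 ± 0.17 in TG, again without overlap between organs, but by -0.39 and -0.25 after quantile normalization, where it was not called. A comparison within the array does not depend on a constant shift of the array: the organ difference of Psme1 minus that of Psme3 was -5.26 ± 0.39 (SD, n = 6 mice) and that of Psme2 minus that of Psme3 was -4.85 ± 0.31, negative in 6 of 6 mice each.

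The remaining members that act on the core from outside were Psme4, which encodes the activator PA200, and Psmf1, which encodes the inhibitor PI31. Psme4 differed by -0.84 in CTR and by -0.09 after quantile normalization, and its 3 probes gave -0.84, -0.70 and -0.31. Psmf1 differed by -1.09 in CTR and by -1.05 after quantile normalization. Its 3 probes did not give one value, at -1.09, -1.35 and -0.04.

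Within the 20S core, the immune subunits were lower in esophagus by more than the constitutive subunits they replace. Psmb8 (beta5i) had levels of 3.39, 2.87 and 3.15 in CTR liver and 1.65, 1.44 and 1.17 in CTR esophagus. In TG mice it had 3.10, 3.76 and 2.83 in liver and 0.42, 1.36 and 1.51 in esophagus. The organs did not overlap, and the esophagus of TG mouse 1 was the lowest of all. The difference was -1.71 ± 0.33 (SE, adjusted p = 0.000926, limma) in CTR and -2.13 ± 0.33 (adjusted p = 0.000209) in TG, or 3.28-fold and 4.38-fold lower.

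Psmb9 (beta1i) had levels of 3.30, 2.50 and 2.88 in CTR liver and 1.02, 0.79 and 0.93 in CTR esophagus. In TG mice it had 2.60, 3.14 and 2.76 in liver and 0.10, 0.69 and 1.13 in esophagus, again without overlap and again lowest in TG mouse 1. Its difference was -1.98 ± 0.29 in CTR (adjusted p = 0.000137, limma) and -2.20 ± 0.29 in TG. Psmb10 (beta2i) had levels between 4.36 and 5.31 in the 6 livers and between 3.06 and 3.44 in the 6 esophagi, a difference of -1.56 ± 0.23 in CTR (adjusted p = 0.000146) and -1.67 ± 0.23 in TG. After quantile normalization the differences of Psmb8, Psmb9 and Psmb10 were -1.42, -1.74 and -1.004 in CTR and -1.85, -1.96 and -1.03 in TG, all still called.

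The constitutive proteolytic subunits differed by less, and their direction was less settled. Psmb5 had levels of 4.43, 4.16 and 4.22 in CTR liver and 3.57, 3.55 and 3.61 in CTR esophagus, a difference of -0.69 ± 0.15 (SE, adjusted p = 0.00201, limma), which was -0.14 and not called after quantile normalization. Psmb6 differed by -0.68 ± 0.14 (adjusted p = 0.00174) and turned to 0.13 after quantile normalization. Psmb7 differed by -0.86 ± 0.17 (adjusted p = 0.00136), and by -0.46 after quantile normalization. Each immune subunit can be set against its constitutive counterpart within the same mouse. The organ difference of Psmb8 minus that of Psmb5 was -1.06 ± 0.38 (SD, n = 6 mice). For Psmb9 minus Psmb6 it was -1.30 ± 0.36, and for Psmb10 minus Psmb7 -0.80 ± 0.27. All 3 were negative in 6 of 6 mice, and after quantile normalization they were -1.36, -1.90 and -0.60. Over the 5 pairs tested, the 2 PA28 pairs above included, the exact two-sided sign-flip permutation test gave p = 0.03125 for each, the smallest value that 6 mice allow, and 0.03125 after Benjamini-Hochberg adjustment over the 5. For the 2 PA28 pairs this outcome followed from the Psme3 difference, the largest of the family. Their test adds nothing to the Psme3 values already given.

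**Figure D2:**
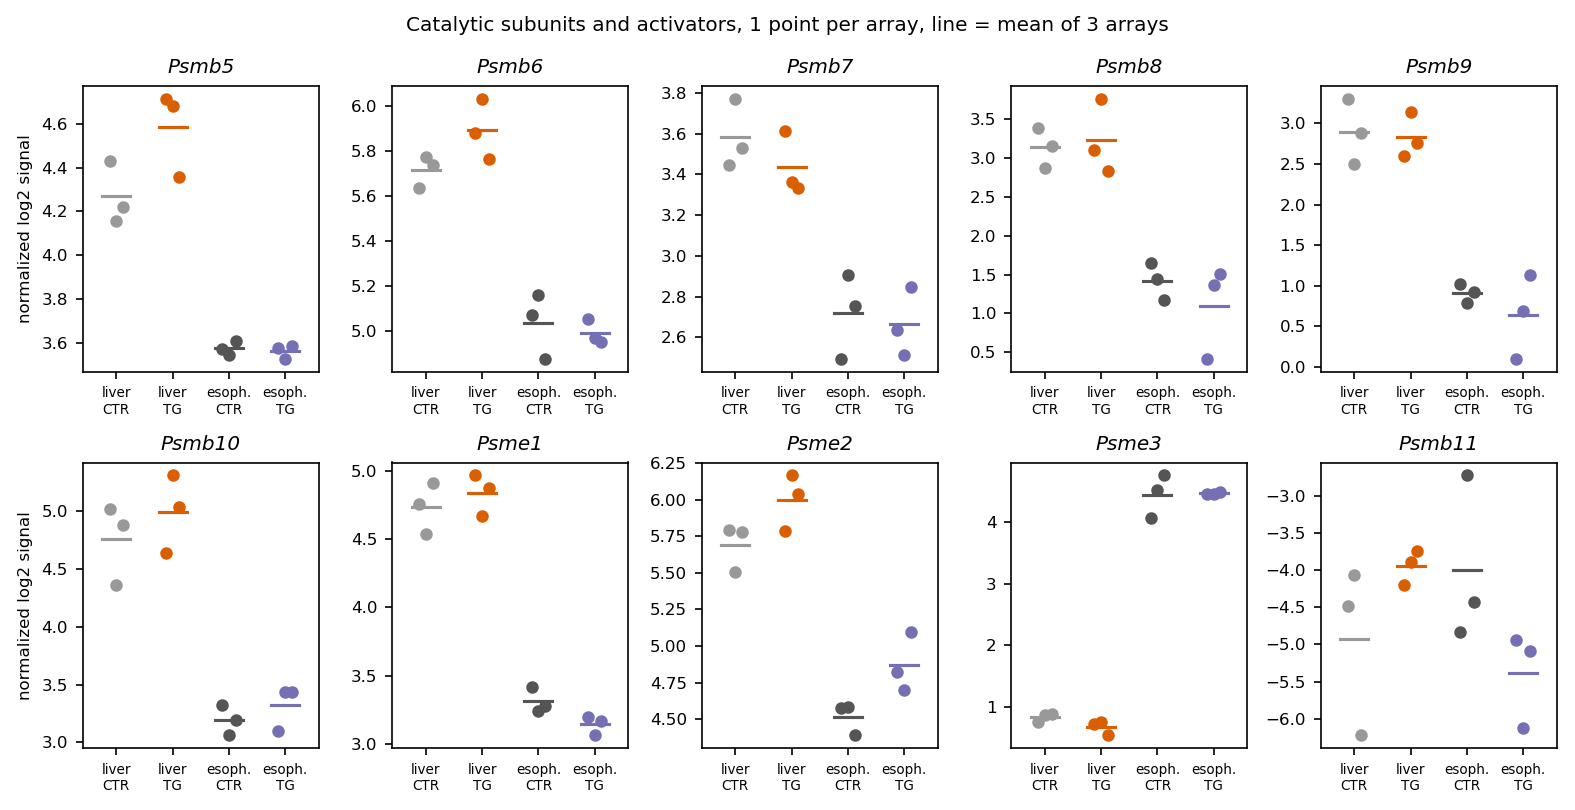
Normalized log2 signal of 10 genes on each array (1 point per array, 3 per group, line at the mean, vertical axes differ between panels). Psmb8, Psmb9, Psmb10, Psme1 and Psme2 are lower in every esophagus than in any liver with this 75th percentile scaling and Psme3 is higher, while Psmb11 stands out in the esophagus of CTR mouse 2 at -2.73.

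Leukocytes are the cells best known for immunoproteasome, and more of their markers were called higher in esophagus than lower. In CTR mice 26.6% of all genes were called higher in esophagus and 36.1% lower. Of 18 leukocyte markers tested there, 7 were called higher and 1, Cd3e, lower. The log2 of their summed signal ran from 5.02 to 5.99 in CTR liver, from 4.70 to 6.69 in TG liver, from 6.80 to 7.35 in CTR esophagus and from 6.27 to 7.48 in TG esophagus, with 10 to 18 of the 18 well above background on an array. Within the esophagus, the array of TG mouse 1, lowest for Psmb8 and Psmb9, also had the lowest median leukocyte marker level, -2.36 against -1.28 to -0.16 on the other 5, and the lowest level of B2m, 2.43 against 3.23 to 4.02. The part of leukocyte content in the organ differences of the immune subunits, and in those 2 low values, was not tested.

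Psmb11 encodes beta5t, the core subunit of the thymus proteasome, which is made by thymic cortical epithelium. Its levels were -4.48, -4.07 and -6.22 in CTR liver and -4.20, -3.90 and -3.75 in TG liver. They were -4.84, -2.73 and -4.43 in CTR esophagus and -4.93, -6.12 and -5.08 in TG esophagus. The groups overlapped, and the esophagus of CTR mouse 2 was the highest of the 12. The same array had the highest level of Rag1, the recombinase of developing lymphocytes, at -0.11 against -7.89 to -4.99 on the other 11, and Rag1 was well above background on that array alone. It also had the highest levels of the thymocyte kinase gene Lck, -0.18, and of Cd3d, -0.86. Other markers in the thymus list did not stand out there: Rag2 was well above background on 0 arrays, Foxn1, the factor of thymic epithelium, was at -2.95 against -3.25 to -2.31 in the other esophagi, and Ptcra was at -4.22 with CTR mouse 3 at -4.09. Dntt, which is active in thymocytes, stood at 2.06 there and at -2.76 to -1.56 in the other 5 esophagi, though at 1.73 to 2.97 in the livers. Of the 9 markers in the thymus list, 8 were well above background on this array and 5 to 7 on the others, and the log2 of their summed signal was 3.15 there against 0.90 to 2.13 in the other esophagi and 6.47 to 7.18 in the livers. The liver sums were mostly from 1 gene, Cd1d1, at 6.30 to 7.07 there. The median of the list ran from -3.63 to -3.05 in the livers and from -4.41 to -2.31 in the esophagi. Whether thymus tissue contributed to the Psmb11 value was not tested. The second Psmb11 probe was above background on none of the arrays and gave -1.04 for the CTR organ difference where the first gave 0.93, so no organ order is given for this gene.

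The other 11 constitutive core genes were measured alongside these. In the alpha ring, whose subunits gate the entrance to the core, 6 of 7 members were called lower in CTR esophagus with the 75th percentile and 0 higher (median -1.05), and 3 lower and 1 higher after quantile normalization (median -0.27). Psma4 differed most: its levels were 3.61, 3.63 and 3.72 in CTR liver and 1.80, 2.32 and 1.27 in CTR esophagus, and 3.37, 3.88 and 3.50 in TG liver and 2.04, 2.34 and 2.30 in TG esophagus. The organs were apart in both genotypes, by -1.86 ± 0.25 (SE, adjusted p = 8.56e-05, limma) in CTR and -1.35 ± 0.25 in TG, with -1.49 and -0.97 after quantile normalization. Its second probe gave -1.83 in CTR. Psma3 differed by -1.67 ± 0.28 in CTR (adjusted p = 0.000463) and -1.24 ± 0.28 in TG. After quantile normalization it was -1.17 in CTR, still called, and -0.67 in TG, where it was not called (adjusted p = 0.0636, limma). Psma6 was the exception in the ring, at -0.14 with overlapping organs, and at 0.56 after quantile normalization, where it was called higher.

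In the constitutive beta ring all 7 members were called lower in CTR esophagus with the 75th percentile (median -0.94), and 2 lower and 0 higher after quantile normalization (median -0.31). Psmb4 had the smallest p, with levels of 6.13, 6.12 and 5.97 in CTR liver and 4.97, 5.10 and 4.78 in CTR esophagus. Its difference was -1.12 ± 0.14 (SE, adjusted p = 5.03e-05, limma) in CTR and -1.34 ± 0.14 in TG, but -0.31 and -0.46 after quantile normalization. Psmb2 kept more of its difference, with -1.17 ± 0.16 in CTR and -0.98 after quantile normalization.

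The genes of the 19S regulator lay closer to 0 with the 75th percentile. Of the 6 ATPases that form its base ring, 3 were called lower and 0 higher in CTR esophagus with the 75th percentile (median -0.32), but 0 lower and 3 higher after quantile normalization (median 0.31). Psmc4 had the smallest p among them, at -0.58 ± 0.15 (SE, adjusted p = 0.0056, limma), which became -0.03. Psmc5 stood at 0.58 ± 0.23 (adjusted p = 0.0504) and 1.07 after quantile normalization, and its second probe gave 0.93 with the 75th percentile. Of the 11 non-ATPase subunits 5 were called lower and 1 higher (median -0.51), against 1 lower and 3 higher after quantile normalization (median 0.13).

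Psmd8, a subunit of the lid, had the smallest p among the non-ATPase subunits. Its levels were 3.21, 3.66 and 3.62 in CTR liver and 2.48, 2.90 and 2.32 in CTR esophagus, a difference of -0.93 ± 0.19 (SE, adjusted p = 0.00176, limma). In TG it was -0.46 ± 0.20 and not called, and after quantile normalization it was -0.54 in CTR, still called, and -0.065 in TG. Psmd7, another lid subunit, was the one called higher: its levels were 3.13, 2.86 and 2.91 in CTR liver and 3.42, 3.51 and 3.81 in CTR esophagus. In TG mice it had 3.05, 2.99 and 2.57 in liver and 3.56, 3.38 and 3.53 in esophagus. The organs did not overlap, and the differences were 0.61 ± 0.18 (adjusted p = 0.012) and 0.62 ± 0.18 (adjusted p = 0.0116), rising to 1.06 in both genotypes after quantile normalization. The 3 probes of Psmd12, a further lid subunit, disagreed in sign, with -0.57 for the probe used and 0.39 and -1.02 for the others.

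The core and the regulator can be compared within each mouse as the median of the esophagus minus liver differences of their genes. For the 14 constitutive core genes this was -1.06 ± 0.18 (SD, n = 6 mice) and for the 17 regulator genes -0.33 ± 0.20. The core stood below the regulator by -0.73 ± 0.21, between -0.98 and -0.46 in single mice. After quantile normalization the core was at -0.33 ± 0.17 and the regulator at 0.21 ± 0.17, so that the regulator changed sign, but the distance was -0.54 ± 0.13. With normexp it was -0.71 ± 0.18 and in the authors' deposited table -0.60 ± 0.25. It was negative in 6 of 6 mice under each of the 4 scalings. These are descriptions over named genes, with no test.

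**Figure D3:**
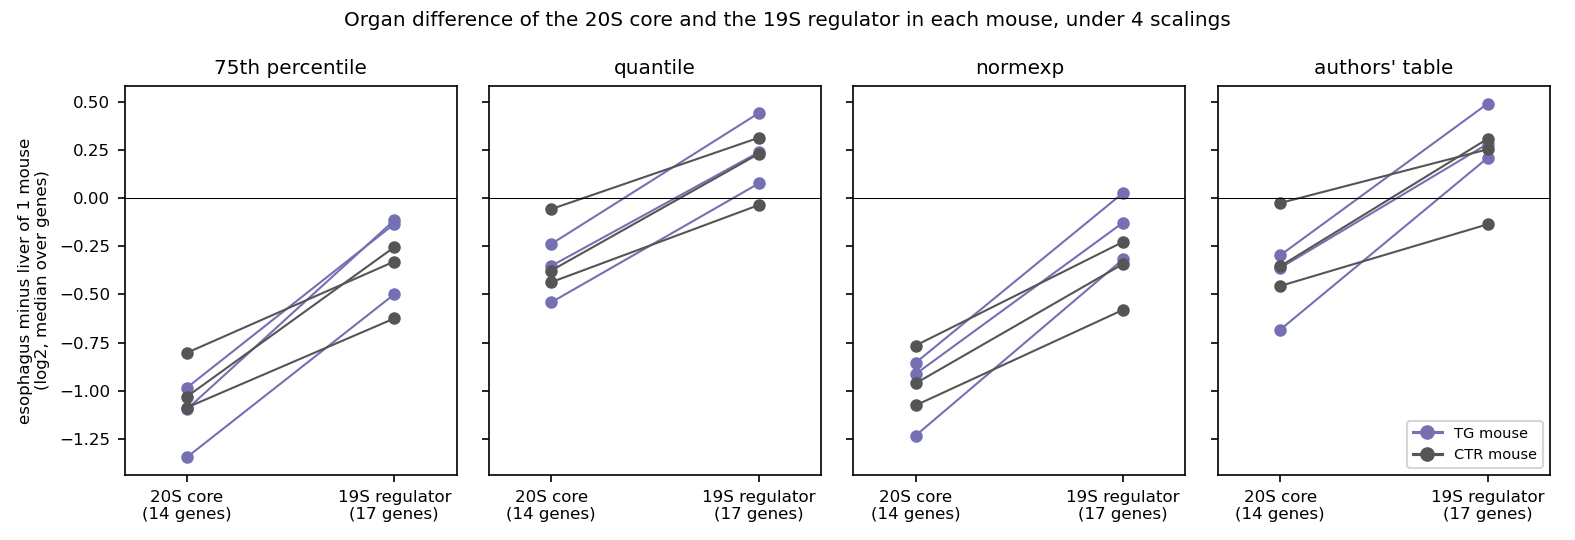
Median difference between esophagus and liver (log2) of the 14 constitutive 20S core genes and the 17 genes of the 19S regulator in each of the 6 mice, under 4 scalings; a line joins the values of 1 mouse. Every line rises from the core to the regulator, while the level of the lines relative to 0 moves with the scaling.

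The assembly factors help the core or the regulator to form and are not part of the finished particle. All 6 were called lower in CTR esophagus with the 75th percentile (median -1.04), and 4 of them, with 0 higher, after quantile normalization (median -0.84). Psmg1, a chaperone of the alpha ring, had levels of 2.52, 2.56 and 2.25 in CTR liver and 0.68, 1.02 and 0.59 in CTR esophagus. In TG mice its levels were 2.40, 2.76 and 2.66 in liver and 0.99, 0.89 and 0.88 in esophagus. Each liver exceeded each esophagus by more than a log2 unit, and the differences were -1.68 ± 0.17 (SE, adjusted p = 1.07e-05, limma) in CTR and -1.68 ± 0.17 in TG, with -1.47 and -1.45 after quantile normalization. Psmg3, which pairs with the Psmg4 product, differed by -1.33 ± 0.19 in CTR and by -1.08 after quantile normalization.

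Psmd9, a chaperone of the regulator's base, had levels of 1.01, 1.43 and 1.53 in CTR liver and -0.37, -0.20 and -0.02 in CTR esophagus. The difference was -1.52 ± 0.18 (SE, adjusted p = 3.53e-05, limma) in CTR and -1.85 ± 0.18 in TG, with -1.39 and -1.75 after quantile normalization. Psmd10 (gankyrin), Psmg2 and Psmd5 differed by -0.75, -0.67 and -0.52 in CTR. After quantile normalization they were at -0.61, -0.45 and -0.28, the last 2 not called, and Psmd10 belonged to the 11 members lower under every scaling. Pomp, the maturation factor of the core, is named outside the family rule and belongs to the list of partners below. It differed by -1.60 ± 0.21 in CTR, and by -0.74 after quantile normalization.

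Other genes of the same pathways were taken as fixed lists. Their counts are read against all genes, of which 36.1% were called lower in CTR esophagus and 26.6% higher. After quantile normalization these shares were 32.1% and 31.1%. For class I antigen presentation, which uses the peptides that immunoproteasomes make, 7 of 10 tested genes were called lower in CTR esophagus and 0 higher (6 and 0 after quantile normalization). B2m, the light chain of class I molecules, had levels of 7.22, 7.33 and 7.23 in CTR liver and 3.70, 3.23 and 3.49 in CTR esophagus, a difference of -3.78 ± 0.33 (SE, adjusted p = 3.21e-06, limma). Erap1, which trims the peptides, differed by -2.03 ± 0.17, the chaperone gene Calr by -1.69 ± 0.24, and Tap1, a subunit of the peptide transporter, by -1.45 ± 0.22. After quantile normalization B2m, Erap1, Calr and Tap1 were at -3.10, -1.89, -1.08 and -1.40. Interferon-stimulated genes were mixed, with 6 of 14 lower and 2 higher. Igtp, Irgm1 and Rsad2 were lower by 2.34, 1.79 and 1.68, and Gbp2 was higher by 1.57, with -1.97, -1.59, -1.60 and 1.60 after quantile normalization.

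Among 28 genes for ubiquitin handling and proteasome partners, 10 were called lower and 4 higher in CTR esophagus, against 36.1% and 26.6% of all genes. After quantile normalization 4 were lower and 9 higher, against 32.1% and 31.1%, so this list has no settled direction. Zfand5, which encodes a protein that binds and activates the proteasome, was higher by 1.75 ± 0.20 (SE, adjusted p = 3.06e-05, limma), and Ufd1 was lower by 1.58, with 2.14 and -1.43 after quantile normalization. Nrf1 and Nrf2 are factors that can raise proteasome and antioxidant genes. Of 15 of their regulators and targets, 7 were higher and 6 lower, against 26.6% and 36.1% of all genes. The glutathione synthesis genes Gclm and Gclc differed by -2.80 and -3.56 and Hmox1, a heme-degrading enzyme, by 2.46, with -2.69, -3.23 and 2.89 after quantile normalization. Slc7a11, the cystine carrier, was called higher too, but it was well above background on 6 of the 12 arrays, so no size is given. Nfe2l1 itself, the gene of Nrf1, had levels of 4.12, 4.08 and 3.85 in CTR liver and 5.66, 5.47 and 6.52 in CTR esophagus, all above the livers; it was named after its values were seen.

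Between genotypes no member passed the test. In esophagus 0 of the 46 members were called, where 0% of the 23196 genes tested were called, and in liver 0 of 46, where 0% of 21236 were called (limma, Benjamini-Hochberg adjusted p under 0.05). At an unadjusted p under 0.05, 0 members and 930 genes passed in esophagus and 1 member and 1762 genes in liver. In esophagus 28 of 46 members had a positive TG minus CTR difference, with a median of 0.07 against 0.01 over all genes. In liver 27 were positive, with a median of 0.12 against 0.13. TG lay wholly above CTR for 4 members in esophagus and wholly below for 2, where 6.94% and 5.63% of all genes did so. In liver the counts were 5 and 1, where the shares were 8.5% and 2.82%.

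The intervals show what size of change these 3 against 3 mice leave possible. In esophagus the 95% confidence interval of 43 of the 46 members lay within a 2-fold change in either direction, and in liver that of 45 did. The median SE of a member was 0.18 in both organs. Psmb11 was outside in both, and Psma3 and Psmb8 in esophagus, with intervals from -0.13 to 1.14 and from -1.04 to 0.40.

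**Figure D4:**
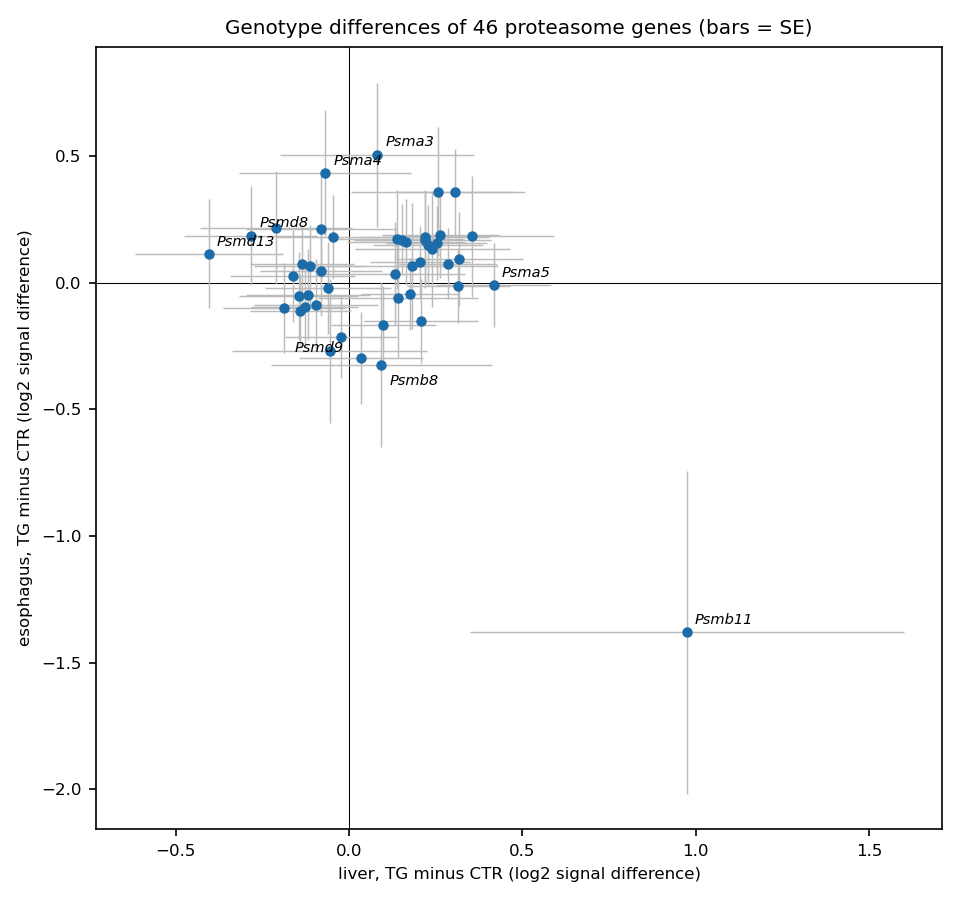
TG minus CTR difference in liver (horizontal axis) and in esophagus (vertical axis) for the 46 genes, as log2 signal difference with SE bars; 0 of the 46 passed the test in either organ. All points but Psmb11, at 0.97 and -1.38, lie within 0.51 of 0 on both axes; Psmb11 was below background on 2 of the 12 arrays and stands at 0.12 and -0.43 with a common floor.

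Markers of other tissues also separated the esophagus groups in part, although none was called. Of 6 heart markers 5 were lower in every TG than in every CTR esophagus, and the log2 of their summed signal was 2.81 to 3.10 in TG against 3.82 to 7.37 in CTR. All 6 were well above background on each of these arrays, and CTR mouse 1 was the highest. Of 7 adipocyte markers 0 had a positive TG minus CTR difference, with summed levels of 5.34 to 7.38 in TG and 6.60 to 7.70 in CTR. Airway markers had summed levels of -0.14 to 6.67 in TG and 4.75 to 7.90 in CTR, and 2 of 18 leukocyte markers had a positive difference. The part of such tissue in the esophagus values that follow was not tested.

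The members with the smallest p in esophagus are given as values that did not pass. Psme2 had levels of 4.58, 4.58 and 4.39 in CTR and 4.82, 4.70 and 5.10 in TG esophagus. The genotypes did not overlap on this probe, and the difference was 0.36 ± 0.17 (SE, adjusted p = 0.999, limma). The second Psme2 probe gave 0.21, and there the genotypes overlapped. Psma3 had 2.87, 3.24 and 2.11 in CTR and 3.18, 3.35 and 3.20 in TG esophagus, with overlap and a difference of 0.51 ± 0.28. Psma4 differed by 0.43 ± 0.25 and its values overlapped too. For both genes the array of CTR mouse 3 was the lowest, and without it the differences were 0.19 and 0.17. On the negative side stood Psmb11 with -1.38 ± 0.64, Psmd9 with -0.30 ± 0.18 and Psmd6 with -0.21 ± 0.16. Without the esophagus of CTR mouse 2, the array with the highest Rag1 level, the Psmb11 value was -0.74. This probe was well above background in 2 of 3 TG esophagi and 2 of 3 CTR livers, so its size is not settled: the esophagus value was -0.43 with all dim signals set to a common floor and -0.50 in the authors' deposited table.

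None of the immune subunits was called between genotypes. In esophagus the TG minus CTR differences were -0.32 ± 0.33 (SE) for Psmb8, -0.27 ± 0.29 for Psmb9, 0.13 ± 0.23 for Psmb10 and -0.17 ± 0.15 for Psme1. Without the low array of TG mouse 1 those of Psmb8 and Psmb9 were 0.02 and -0.0014. In liver they were 0.09, -0.06, 0.24 and 0.10, and that of Psme2 was 0.30. The 3 constitutive proteolytic genes Psmb5, Psmb6 and Psmb7 had -0.01, -0.04 and -0.05 in esophagus and 0.31, 0.18 and -0.15 in liver.

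In liver the smallest p belonged to Psma5, with levels of 5.86, 5.62 and 5.51 in CTR and 5.85, 6.31 and 6.08 in TG. The values overlapped at CTR mouse 1 and TG mouse 1, and the difference was 0.42 ± 0.17 (SE, adjusted p = 0.59, limma). Psmb5 had 4.43, 4.16 and 4.22 in CTR and 4.71, 4.68 and 4.36 in TG liver, with overlap and a difference of 0.31 ± 0.15. Psmb4 differed by 0.29 ± 0.14, with every TG liver above every CTR liver. Psmd13, a lid subunit, had 0.61, 1.04 and 1.19 in CTR and 0.38, 0.63 and 0.61 in TG liver, with overlap and a difference of -0.41 ± 0.21. Psmd8 and Psmd1 had -0.28 and -0.19.

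The core and the regulator lay on different sides of 0 in liver, where the median over all genes was itself 0.13. Of the 14 constitutive core genes 12 had a positive TG minus CTR difference, 6 of 7 in each ring, with medians of 0.20 and 0.23, while 5 of the 17 regulator genes did, with medians of -0.10 for the ATPases and -0.08 for the non-ATPase subunits. None of these genes passed the test. The share of all genes above 0 was not counted and the genes share the same arrays, so these counts are descriptions only. In esophagus the alpha ring had 6 of 7 positive (median 0.18), the beta ring 4 of 7 (0.03), the ATPases 2 of 6 (-0.04) and the non-ATPase subunits 6 of 11 (0.11). Within the slide that held both genotypes, the median of the 46 members was -0.10 in esophagus and 0.01 in liver, each from 1 array per genotype.

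The genotype difference in esophagus was also tested against that in liver. Of the 46 members 0 passed, where 0% of 24429 genes did, and 1183 genes had an unadjusted p under 0.05. The smallest p per direction belonged to Psmb11, -2.35 ± 0.90, and Psma5, -0.43 ± 0.24, and to Psmd8, 0.47 ± 0.28, and Psmd13, 0.52 ± 0.31 (SE, adjusted p = 0.958 for each, limma). The Psmb11 value rests on arrays below background and was -0.55 with a common floor and in the authors' deposited table. The partner lists gave no call in either organ either. Their smallest p belonged to Pomp (0.47 ± 0.21) and Sem1 (0.37 ± 0.23) among partners in esophagus, to Uba1 (-0.65 ± 0.21), the main ubiquitin-activating enzyme, and Ecpas (0.44 ± 0.18) in liver, and to Tap1 (0.42 ± 0.22) and Canx (-0.24 ± 0.16) for antigen presentation in esophagus and Tap2 (-0.39 ± 0.22) and Irf1 (0.41 ± 0.23) in liver. Ifit3 and Rsad2, both interferon-stimulated, stood at -0.85 ± 0.23 and -0.85 ± 0.24 in esophagus without passing, while Oas2, Isg15 and Oas1a stood at 1.25, 0.69 and 0.55. The esophagus of TG mouse 3 was apart on this list, with a median level of 0.27 against -2.48 to -1.79 on the other 5. Gclm stood at 0.54 ± 0.18.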

How the data were processed

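Per the file headers, Agilent Feature Extraction 10.7.1.1 made the deposited scanner files, whose intensity values are background-subtracted on a linear scale and not scaled between arrays. A second deposited file holds the authors' log2 values, with a median of 7.27 in every column; limma is named per the submitters' processing notes. The 1311 spots flagged as outliers were left out, and 0 were saturated. Values were log2 intensity minus the array's 75th percentile. Testing required that the probe exceeded background clearly on all 3 arrays of a compared group. One fit of 4 groups (limma 3.58.1, R 4.3.3, 8 residual degrees of freedom, no block) gave every contrast, adjusted over all genes and unnamed probes tested. Motifs and figures used Python with pandas and matplotlib. The procedure was tested on simulated data. Normexp used median signals, in place of the planned mean signals, with an offset of 50. The number of arrays limits the precision.

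Psmb5, Psmb6, Psmb7, Psmb8, Psmb9, Psmb10, Psmb11, Psme1 and Psme2 were always named, then the 8 largest called per direction between CTR organs, the 3 smallest p per direction between genotypes, the 2 for their difference, the smallest p of each role group, and up to 4 (organs) or 2 (genotypes) per pathway list. Other members were named after their values were seen. Members and lists were chosen with earlier results of these data known. The 4-scaling rule and the comparison of core with regulator were chosen after values were seen. Esophagus and liver of one number came from the same animal per the labels, so the numbers pair the organs; deviations of such pairs correlated at -0.04 to 0.19. TG and CTR numbers name different animals.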

Additional observations from a re-analysis of the deposited data

How the results depend on the processing

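The organ values of the family depended on the scaling. Of the 46 members, quantile normalization called 15 lower and 8 higher in CTR esophagus (median -0.18) and 13 and 8 in TG esophagus (median -0.18), and the authors' deposited table called 16 and 6 (median -0.20) and 14 and 9 (median -0.17). Of all genes, quantile normalization called 32.1% lower and 31.1% higher in CTR, and 32.2% and 30.2% in TG. The authors' table called 7108 of 23356 genes lower and 6971 higher in CTR, and 7240 and 6896 of 23902 in TG. The TG median was -0.78 with normexp and, averaging the probes of a gene, -0.78 with 4 members called higher. Psmb6 turned in CTR to 0.13 with quantile normalization and to 0.050 in the authors' table, and Psmb11 to -0.056 with averaged probes. With each animal as a replicate block, since the numbers pair the organs, 33 members were lower and 2 higher in CTR and 30 and 2 in TG, and the block ended no call among the genes named by the rule. Psmb11 in TG passed with the block, with normexp and with averaged probes. Shares of all genes by direction are not given for the block or the averaged probes, so those member counts have no background here.

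Between genotypes the count of members called was 0 under every alternative. Over all genes the esophagus count was 1 with quantile normalization, 4 with normexp, 2 in the authors' table, 2 with a common floor, 1 with a fixed slide block and 1 with array weights, and the count for the difference between organs was 1 with quantile normalization, normexp, the authors' table and the floor. A fixed slide term put the median of members in liver at -0.010. In liver Psmb8 turned to -0.10 with normexp and in the authors' table, Psmb9 to 0.094, 0.072 and, with array weights, 0.17, and Psmb6 to -0.0025 in the authors' table.

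Leaving out each array in turn gave 30 to 35 members lower in CTR esophagus and 29 to 32 in TG esophagus. Of all genes, 13375 to 15111 were then called in either direction between the CTR organs and 13394 to 15508 between the TG organs. Between genotypes, 0 to 7 genes were called in esophagus, 0 to 18 in liver and 0 to 1 for the difference. The esophagus median of members ran from -0.00072 to 0.15, the latter without CTR mouse 2. Esophagus values that changed sign ran from -0.53 to 0.017 for Psmb8, -0.027 to 0.0059 for Psmb5, -0.12 to 0.019 for Psmb6 and -0.17 to 0.041 for Psmb7, and liver values from -0.17 to 0.29 for Psmb8 and -0.25 to 0.15 for Psmb9. The causes were not tested.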
